A study of Homo sapiens with 21 samples.

Results

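The genes described here are 10 genes of the ATF4 arm of the integrated stress response: ATF4, ATF3, ATF5, DDIT3, TRIB3, CHAC1, ASNS, SESN2, NUPR1 and GDF15. They were taken by symbol from the 42339 gene identifiers of a raw count table, all 10 were found, and all 10 passed the low-count filter in every comparison. The table covers 21 RNA-seq libraries of BT-549, an established triple-negative breast cancer (TNBC) line with mesenchymal features, in 7 groups of 3. The first group was 2D cells, grown as monolayers in serum-containing medium. The second was 3D cells, which are mammospheres grown in serum-free medium and collected at passage S6, and the third was 3D cells treated with 0.75 µmol/L GO-203, a peptide that blocks the cytoplasmic CQC motif of MUC1-C. The other groups were BT-549/tet-MUC1shRNA mammospheres at S6 and BT-549/tet-MYCshRNA mammospheres at S8, each treated with 0.1% DMSO as vehicle or with 500 ng/mL doxycycline (DOX), which switches on the shRNA. DOX was given for 10 days in the tet-MUC1shRNA line, and the sources used here give no duration for the tet-MYCshRNA and GO-203 libraries. Each silenced line carried 1 hairpin in a lentiviral pLKO-tet-puro vector, and the 2D, 3D and GO-203 groups carried none. No group of the 21 libraries combined DOX with a hairpin that targets neither gene, so an effect of DOX itself and an effect of silencing cannot be told apart within either line.

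The integrated stress response starts when 1 of several kinases phosphorylates the translation factor eIF2α: PERK senses endoplasmic reticulum (ER) stress, GCN2 amino acid shortage, HRI haem and mitochondrial stress, and PKR double-stranded RNA. General translation then slows, whereas the ATF4 mRNA, which carries short upstream reading frames, is translated more. ATF4, a basic leucine zipper factor, then activates genes for amino acid synthesis and import, for further transcription factors such as DDIT3 (CHOP) and for feedback. ATF4 activity is thus set largely at the level of translation, which RNA-seq does not measure, and the ATF4 targets are the closer readout. Doxycycline is also known to inhibit mitochondrial ribosomes, and mitochondrial translation stress is among the known triggers of ATF4.

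Library totals ran from 38026597 to 99751717 counts. Levels are given as CPM (a gene’s share of the counted reads), scaled with trimmed-mean (TMM) factors over all 21 libraries. MUC1 stood at 82.4 to 101 CPM in the vehicle and 20.2 to 23.1 CPM in the DOX libraries of the tet-MUC1shRNA line, and MYC at 382 to 446 CPM in the vehicle and 239 to 304 CPM in the DOX libraries of the tet-MYCshRNA line. The mesenchymal markers VIM, CDH2, ZEB1 and FN1 were all present, with a summed level of 2180 to 16000 CPM in the 21 libraries. CDH1, EPCAM, ESR1 and PGR summed to 0.0301 to 1.55 CPM. Of 6 leukocyte, endothelial and hepatocyte markers, whose summed level was 1.44 to 10.8 CPM, 2 reached 1 CPM in any library (PECAM1 and PTPRC). No marker of that list was at 0 in all libraries. The libraries are bulk RNA, so a change in the share of a kind of cell and a change in RNA per cell cannot be told apart.

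The 10 genes lie on 8 chromosomes in GRCh38, and all are protein coding. ATF4 is at chr22:39519695-39522683 on the plus strand, ATF3 at chr1:212565334-212620777 (plus), ATF5 at chr19:49928702-49933935 (plus) and DDIT3 at chr12:57516588-57521737 (minus). TRIB3 is at chr20:362835-397559 (plus), CHAC1 at chr15:40952962-40956512 (plus), ASNS at chr7:97851677-97872542 (minus), SESN2 at chr1:28259518-28282491 (plus), NUPR1 at chr16:28532708-28539008 (minus) and GDF15 at chr19:18374731-18389176 (plus). The ASNS count is uncertain, because 49.3% of its exon bases are shared on the same strand with ENSG00000284707 and reads that fit both genes may be left uncounted. ASNS had 3496 counts over the 21 libraries, fewer than the 4956 counts of ASNSP1, a pseudogene that carries a near copy of its sequence. The 4 ATF4 pseudogenes held few reads by comparison, since the largest of them, ATF4P3, had 2863 counts against 257594 for ATF4. Of the DDIT3 exon bases 31.6% lie opposite MARS1 or MBD6, and of the ATF5 exon bases 19.5% lie opposite IL4I1 or NUP62. The libraries were made with a strand-specific kit, but the strand setting of the counting is not given in the sources used here. The lowest count of any of the 10 genes in any library was 45, for NUPR1.

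Promoter sequence was examined because the 10 genes are grouped by a transcription factor with a known target sequence. The RefSeq promoter table (GRCh38.p14) held 17 start sites for 9 of the 10 genes, and the 250 bases before each start were searched on both strands. The C/EBP-ATF response element (CARE), searched as TGATGNAA, was found at 3 of the 17 starts, those of ATF3, CHAC1 and ASNS, and 3.14% of all 35116 promoters in the table held it. The cyclic AMP response element TGACGTCA was found at none of the 17 and in 1.65% of all promoters. The E-box CACGTG, the motif read by MYC and MAX, was found before both ATF4 starts, which lie within a few bases of each other, and in 6.34% of all promoters. None of these motifs overlapped another in these windows. The windows are shown 5′ to 3′ on the strand of the gene for the genes with a match, with the matching bases in capitals. A match is a description of the letters and not evidence of binding.
ASNS: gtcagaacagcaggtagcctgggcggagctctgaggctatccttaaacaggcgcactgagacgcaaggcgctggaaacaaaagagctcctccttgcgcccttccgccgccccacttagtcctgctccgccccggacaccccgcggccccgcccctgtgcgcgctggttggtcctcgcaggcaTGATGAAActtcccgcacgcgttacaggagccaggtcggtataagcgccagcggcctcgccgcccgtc
CHAC1: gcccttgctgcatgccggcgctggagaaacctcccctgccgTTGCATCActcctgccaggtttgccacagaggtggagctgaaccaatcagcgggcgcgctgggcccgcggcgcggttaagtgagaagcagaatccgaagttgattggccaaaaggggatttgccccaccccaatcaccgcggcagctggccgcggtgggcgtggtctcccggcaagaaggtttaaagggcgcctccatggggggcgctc
ATF3: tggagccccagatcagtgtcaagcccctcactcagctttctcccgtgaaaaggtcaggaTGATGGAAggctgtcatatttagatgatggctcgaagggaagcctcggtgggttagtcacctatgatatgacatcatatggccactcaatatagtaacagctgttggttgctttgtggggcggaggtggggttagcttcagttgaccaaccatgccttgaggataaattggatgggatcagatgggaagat
ATF4: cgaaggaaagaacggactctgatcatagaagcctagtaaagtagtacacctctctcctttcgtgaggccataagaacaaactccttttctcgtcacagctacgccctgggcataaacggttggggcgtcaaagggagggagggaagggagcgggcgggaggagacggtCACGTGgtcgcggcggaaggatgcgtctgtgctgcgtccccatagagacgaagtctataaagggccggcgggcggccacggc
In ASNS (chr7:97872409-97872658, minus strand) the CARE lies at positions -68 to -61 counted from the start site, and in ATF3 (chr1:212565157-212565406) at -191 to -184. In CHAC1 (chr15:40953221-40953470) it lies at -209 to -202 and reads on the opposite strand, so that its reverse complement TTGCATCA is printed. The ATF4 window shown is chr22:39520309-39520558, with the E-box at -82 to -77.

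ATF4 itself varied least across the 7 groups, and its targets varied several fold. Per kilobase of exon, the mean level in 3D cells was 99.8 CPM for ATF4, against 16.0 for TRIB3, 12.9 for SESN2, 9.33 for ATF3, 6.65 for ATF5, 3.22 for GDF15, 3.18 for DDIT3, 2.35 for CHAC1, 0.644 for ASNS and 0.227 for NUPR1. The highest group mean of ATF4 was 1.89 times the lowest, whereas this ratio was 7.49 for SESN2, 7.59 for NUPR1 and 7.98 for GDF15. The order of the 7 groups also differed between the genes. TRIB3, CHAC1, ASNS and SESN2 were highest in vehicle-treated tet-MUC1shRNA mammospheres, and for each of these 4 genes the 3 libraries lay above all 18 others. By group mean, ATF5, DDIT3 and NUPR1 were highest in DOX-treated tet-MYCshRNA mammospheres, ATF3 in GO-203-treated 3D cells, GDF15 in DOX-treated tet-MUC1shRNA mammospheres and ATF4 in 2D cells. For DDIT3 and ATF3 the highest group overlapped vehicle-treated tet-MUC1shRNA mammospheres, and for ATF4 it overlapped 3D cells. Many neighbours in these orders overlapped. For ATF4, 5 of the 6 neighbouring pairs of groups had overlapping libraries, with a gap only between vehicle-treated tet-MUC1shRNA (219 to 266 CPM) and vehicle-treated tet-MYCshRNA mammospheres (173 to 207 CPM). For SESN2 and TRIB3 2 of the 6 neighbouring pairs overlapped.

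**Figure D1:**
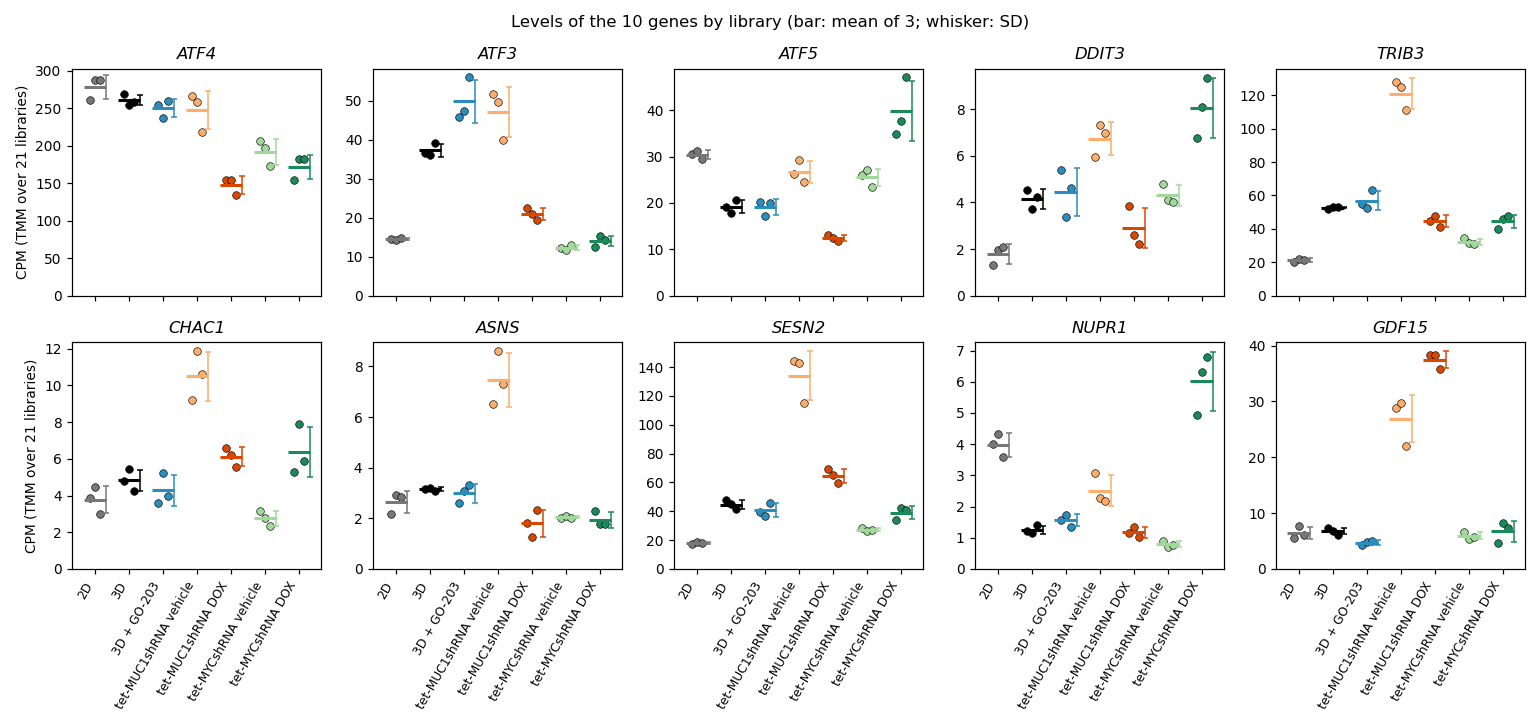
Level of each of the 10 genes in CPM (y axis, from 0, a separate scale per gene) in the 3 libraries of each of the 7 groups (x axis). Points are libraries, bars group means and whiskers the SD. TRIB3, CHAC1, ASNS and SESN2 are highest in vehicle-treated tet-MUC1shRNA mammospheres, and ATF4 spans the narrowest range, with means from 148 to 279 CPM. NUPR1 and, by its mean alone, DDIT3 are highest in DOX-treated tet-MYCshRNA mammospheres.

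The first comparison asked which of the 10 genes changed when BT-549 cells were grown as S6 mammospheres in place of monolayers. ATF3, TRIB3, SESN2 and DDIT3 rose 2.4- to 2.67-fold in 3D vs. 2D cells, NUPR1 and ATF5 fell, and ATF4 mRNA did not differ detectably. With edgeR's quasi-likelihood test, Benjamini-Hochberg adjusted over all 19190 genes tested and called at adjusted p below 0.1, 5 of the 10 genes were called higher and 2 lower. Over all genes tested 32.0% were called higher and 31.7% lower. NUPR1 was the only 1 of the 10 with an absolute log2 fold change over 1.5, a size that 16.2% of all genes tested reached among calls. The median log2 fold change of the 10 genes was 0.35, against -0.01 over all genes tested.

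Among the transcription factors, ATF4 stood at 261, 288 and 288 CPM in 2D cells and at 269, 255 and 259 CPM in 3D cells. The groups overlapped, and the log2 fold change was -0.04 with a 95% interval of -0.16 to 0.07. ATF3, a repressor and activator induced by many stresses, stood at 14.6, 14.3 and 14.7 CPM in 2D and at 36.6, 36.1 and 39.2 CPM in 3D cells. Every 3D library lay above every 2D library, with a log2 fold change of 1.42 ± 0.07 (SE, n = 3 per group; edgeR adjusted p = 5.2e-11). DDIT3 (CHOP), a factor of the apoptotic branch, stood at 1.32, 1.96 and 2.1 CPM in 2D and at 4.55, 3.71 and 4.22 CPM in 3D cells. The groups did not overlap, with a log2 fold change of 1.26 ± 0.19 (edgeR adjusted p = 2.9e-05). ATF5, a relative of ATF4 that is also under translational control and takes part in the mitochondrial stress response, went the other way, from 30.5, 31.3 and 29.5 CPM in 2D to 19.1, 17.9 and 20.6 CPM in 3D cells. Its fall of 0.61 ± 0.08 on the log2 scale (edgeR adjusted p = 3.5e-06) left no overlap between the groups.

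Of the effectors, TRIB3, a pseudokinase that feeds back on ATF4 and inhibits AKT, rose from 20, 22.2 and 21.4 CPM in 2D to 52.2, 53 and 53.1 CPM in 3D cells. SESN2, a leucine sensor that restrains mTORC1, rose from 17.2, 18.5 and 18.2 CPM to 47.5, 45 and 41.7 CPM. Both had a log2 fold change of 1.37, with an SE of 0.06 and an edgeR adjusted p of 1.5e-11 for TRIB3 and an SE of 0.07 and an adjusted p of 6.6e-11 for SESN2, and neither had overlapping groups. NUPR1, a small stress-induced chromatin protein, stood at 3.99, 4.34 and 3.58 CPM in 2D and at 1.22, 1.14 and 1.4 CPM in 3D cells. Its log2 fold change was -1.60 ± 0.19 (edgeR adjusted p = 1.6e-06), and every 3D library was below every 2D library. CHAC1, which degrades glutathione, stood at 3.86, 4.45 and 3 CPM in 2D and 4.81, 5.43 and 4.23 CPM in 3D cells. The groups overlapped, the log2 fold change was 0.41 ± 0.17 (edgeR adjusted p = 0.0505), and the call was lost without 2D replicate 3 (log2 fold change 0.26, adjusted p = 0.223) or without 3D replicate 2 (0.34, adjusted p = 0.145). ASNS, which makes asparagine, and GDF15, a secreted stress hormone, were not called, with 95% intervals of -0.07 to 0.67 and -0.18 to 0.40 on the log2 scale. When the tet-MUC1shRNA vehicle group stood in for 3D cells, all 10 genes were called against 2D cells, ASNS (log2 fold change 1.53, edgeR adjusted p = 2.0e-07) and GDF15 (2.09, 3.1e-10) as higher and ATF4 (-0.13, 0.0847) as lower. The rises of SESN2 (2.94), TRIB3 (2.56), DDIT3 (1.94) and CHAC1 (1.53) were then larger and the falls of NUPR1 (-0.63) and ATF5 (-0.15, adjusted p = 0.0937) smaller. ASNSP1 fell in 3D vs. 2D cells (log2 fold change -1.32 ± 0.14, edgeR adjusted p = 4.7e-07). The line markers FN1 (log2 fold change 3.89 ± 0.06) and ZEB1 (1.14 ± 0.06) rose there and CDH2 fell (-3.11 ± 0.06). Markers of other cells also moved, since PECAM1 went from 0 to 0.0353 CPM in 2D to 5.83 to 7.08 CPM in 3D cells, PTPRC from 1.06 to 1.49 CPM to 0.0301 to 0.115 CPM, and CDH1 from 1.31 to 1.55 CPM to 0 counts in each 3D library. Their part in the result was not tested.

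The second comparison asked what followed DOX induction of the MUC1 shRNA in mammospheres. All 10 genes changed: 9 fell and GDF15 rose. In edgeR's test over 19220 genes 31.6% of all genes were called lower and 30.7% higher, and the median log2 fold change was -1.10 over the 10 genes and 0.02 over all genes tested. ASNS alone among the 10 passed an absolute log2 fold change of 1.5, which 8.82% of all genes tested did. Of all calls 49.3% were higher; with library size alone this share was 64.4% and the median over all genes 0.19, and the 10 genes kept their directions and calls. For none of the 10 genes did the DOX and vehicle libraries overlap.

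ATF4 stood at 266, 258 and 219 CPM with vehicle and at 154, 155 and 134 CPM with DOX, a fall of 0.75 ± 0.06 on the log2 scale (SE, n = 3 per group; edgeR adjusted p = 6.3e-10). This was the largest change of ATF4 in the 4 comparisons of the design. ATF3 stood at 51.8, 49.7 and 39.9 CPM with vehicle and 22.6, 21 and 19.5 CPM with DOX, and ATF5 at 26.2, 29.3 and 24.6 CPM and 13, 12.5 and 11.8 CPM. Their log2 fold changes were -1.17 ± 0.08 (edgeR adjusted p = 7.4e-11) and -1.11 ± 0.08 (adjusted p = 9.4e-11). DDIT3 went from 5.94, 7.3 and 6.97 CPM to 3.84, 2.62 and 2.21 CPM, a log2 fold change of -1.23 ± 0.16 (edgeR adjusted p = 1.5e-06). All 4 transcription factors of the list thus fell, and ATF4 fell least.

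TRIB3 stood at 128, 125 and 111 CPM with vehicle and at 44.9, 48 and 41 CPM with DOX, and SESN2 at 144, 143 and 115 CPM and 69, 65 and 59.4 CPM. These were the highest TRIB3 and SESN2 levels of the series in the vehicle group, and the log2 fold changes were -1.45 ± 0.06 (edgeR adjusted p = 1.6e-14) and -1.07 ± 0.07 (adjusted p = 2.8e-11). ASNS went from 6.51, 8.61 and 7.3 CPM to 1.81, 1.28 and 2.34 CPM, a 4.24-fold difference with a log2 fold change of -2.08 ± 0.18 (edgeR adjusted p = 4.3e-09). ASNSP1 fell too, by 1.07 ± 0.14 on the log2 scale (edgeR adjusted p = 1.6e-06). CHAC1 went from 9.21, 11.9 and 10.6 CPM to 6.58, 6.21 and 5.54 CPM (log2 fold change -0.80 ± 0.11, edgeR adjusted p = 2.7e-06). NUPR1 went from 3.09, 2.26 and 2.17 CPM to 1.14, 1.36 and 1.01 CPM (log2 fold change -1.09 ± 0.21, edgeR adjusted p = 0.00019). GDF15 moved against the other 9, from 28.9, 29.7 and 22.1 CPM to 38.3, 38.3 and 35.8 CPM (log2 fold change 0.47 ± 0.08, edgeR adjusted p = 4.5e-05). GDF15 is known as a target of p53 as well as of ATF4 and DDIT3. Markers of cell state moved in the same comparison, since CDH2 rose (log2 fold change 2.67 ± 0.06), VIM rose (0.18 ± 0.04), ZEB1 fell (-1.41 ± 0.04) and FN1 fell (-0.51 ± 0.04). CDH1 rose from 0 to 0.0519 CPM to 0.236 to 0.405 CPM, and of the 6 markers of other cells PECAM1 alone was called (-0.43 ± 0.15, from 3.89 to 4.11 CPM to 2.64 to 3.33 CPM). Their part in the result was not tested.

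**Figure D2:**
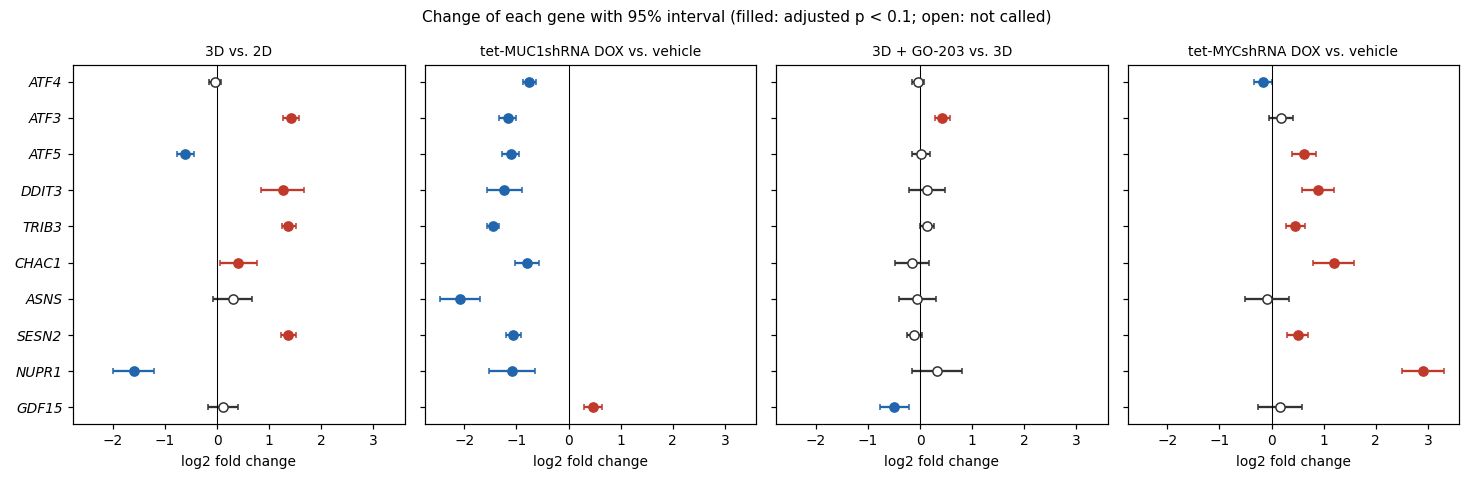
log2 fold change of each of the 10 genes (rows) with its 95% interval (x axis) in the 4 comparisons of the design (panels). Filled points passed edgeR's test at adjusted p below 0.1, red for higher and blue for lower, and open points did not; 9 of 10 are lower with DOX in the tet-MUC1shRNA line, 6 of 10 are higher with DOX in the tet-MYCshRNA line and 2 of 10 are called with GO-203.

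The starting level of most of these genes in the tet lines differed from that of 3D cells. Both lines were therefore also compared with the 3D group, comparisons that were added after the levels had been seen, that differ in vector, vehicle and, for the tet-MYCshRNA line, passage, and that share the 3D libraries with each other and with 3D vs. 2D. In vehicle-treated tet-MUC1shRNA mammospheres 9 of the 10 genes were called higher than in 3D cells and none lower by edgeR's test, which called 31.8% of all 18409 genes higher and 30.7% lower. The remaining gene was ATF4, at -0.10 on the log2 scale (adjusted p = 0.193, unadjusted p = 0.134); library size scaling, a minimum of 10 counts and leaving out 3D replicate 2 or vehicle replicate 1 each brought it under the threshold as lower. The differences were largest for GDF15 (1.98 ± 0.11 on the log2 scale), SESN2 (1.56 ± 0.08), ASNS (1.22 ± 0.14), TRIB3 (1.18 ± 0.06) and CHAC1 (1.11 ± 0.13). NUPR1 (0.97 ± 0.21), DDIT3 (0.67 ± 0.13), ATF5 (0.45 ± 0.08) and ATF3 (0.31 ± 0.08) followed. In vehicle-treated tet-MYCshRNA mammospheres 7 of the 10 were called lower and 1 higher, where 24.3% of all 19486 genes were called lower and 23.3% higher (of all calls 49.0% higher, or 59.9% with library size alone). ATF3 was lowest relative to 3D cells, at 12.2, 11.8 and 12.9 CPM against 36.6, 36.1 and 39.2 CPM (log2 fold change -1.66 ± 0.07). CHAC1 (-0.86 ± 0.15), TRIB3 (-0.77 ± 0.06), SESN2 (-0.77 ± 0.06), NUPR1 (-0.72 ± 0.24), ASNS (-0.67 ± 0.15) and ATF4 (-0.50 ± 0.06) were also lower, and the NUPR1 call was lost without vehicle replicate 2 (-0.63, adjusted p = 0.105). ATF5 was higher by 0.35 ± 0.08 on the log2 scale, and DDIT3 and GDF15 were not called, though GDF15 was called lower without 3D replicate 3 (-0.29, adjusted p = 0.0922) or vehicle replicate 1 (-0.31, 0.0825). MUC1 and MYC were themselves lower in both vehicle groups than in 3D cells, at 82.4 to 101 and 67.5 to 72.6 against 177 to 219 CPM for MUC1, and at 235 to 253 and 382 to 446 against 545 to 584 CPM for MYC. Markers moved as well: in the tet-MUC1shRNA vehicle group CDH2 (-2.12 ± 0.07), VIM (-0.24 ± 0.05) and PECAM1 (-0.75 ± 0.13) were lower than in 3D cells, and FN1 (0.61 ± 0.05), ZEB1 (0.63 ± 0.05) and the scarce CD68 (2.97 ± 0.53, means of 0.54 and 0.065 CPM) were higher. In the tet-MYCshRNA vehicle group CDH2 (-1.23 ± 0.06) and FN1 (-0.39 ± 0.04) were lower, and VIM (0.92 ± 0.05), ZEB1 (0.25 ± 0.05) and CD68 (1.92 ± 0.56) were higher. ESR1 was called higher in both but stayed at means of 0.355 and 0.342 CPM, against 0.0357 CPM in 3D cells. The part of these genes in these differences was not tested.

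Measured against 3D cells in place of vehicle, the DOX-treated tet-MUC1shRNA mammospheres gave another picture for some of the genes. ATF4 (-0.87), ATF3 (-0.88), ATF5 (-0.68), DDIT3 (-0.58), TRIB3 (-0.29) and ASNS (-0.87) were still lower on the log2 scale. Of these only ATF4 did not fall less than it did against vehicle. SESN2 was instead higher by 0.48 on the log2 scale (edgeR adjusted p = 1.8e-06), CHAC1 was higher by 0.29 (adjusted p = 0.0571) and NUPR1 was no longer called (-0.14, adjusted p = 0.625). SESN2 thus fell from a level of 115 to 144 CPM to one of 59.4 to 69 CPM that was still above the 41.7 to 47.5 CPM of 3D cells. GDF15, at 35.8 to 38.3 CPM after DOX, remained far above the 6.15 to 7.25 CPM of 3D cells.

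**Figure D3:**
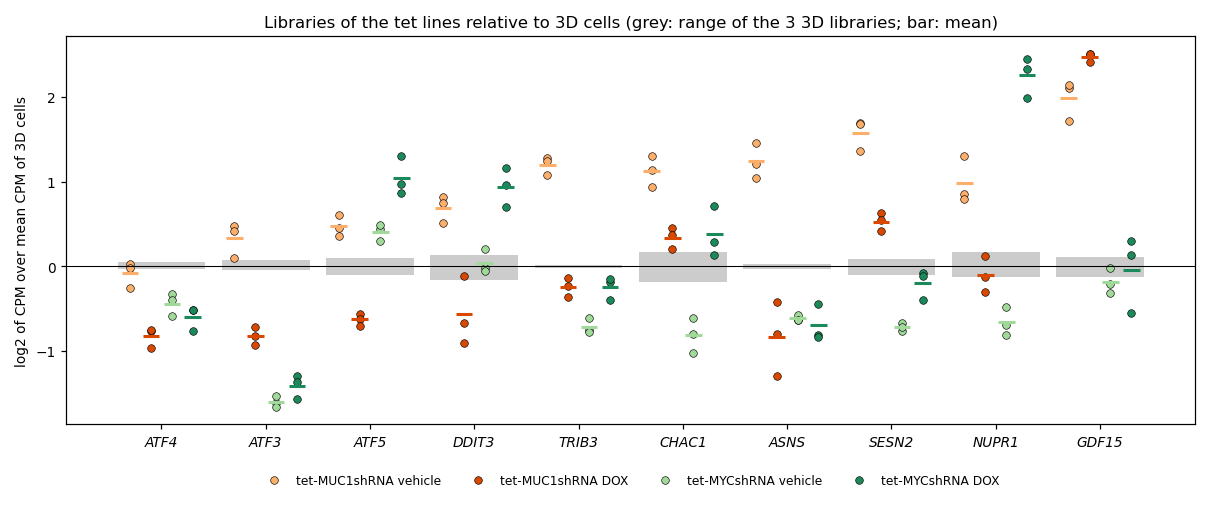
log2 of each library's CPM over the mean CPM of 3D cells (y axis) for the 10 genes (x axis) in the tet-MUC1shRNA and tet-MYCshRNA lines, each with vehicle or DOX. Points are libraries, bars the means of 3 and grey bands the range of the 3 3D libraries. Vehicle-treated tet-MUC1shRNA libraries lie above the band for 9 genes, ATF4 being the exception, and DOX brings 9 of the 10 genes down and GDF15 up.

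The third comparison asked the same of DOX induction of the MYC shRNA. The direction was mostly opposite to that in the tet-MUC1shRNA line: 6 of the 10 genes rose, ATF4 alone was called lower, and ATF3, ASNS and GDF15 were not called. In edgeR's test over 19951 genes 30.3% of all genes were called higher and 28.1% lower. The median log2 fold change was 0.48 over the 10 genes and 0.01 over all genes tested, and NUPR1 alone passed an absolute log2 fold change of 1.5, which 10.5% of all genes tested did.

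NUPR1 stood at 0.892, 0.71 and 0.775 CPM with vehicle and at 4.94, 6.3 and 6.8 CPM with DOX. This was a 7.52-fold rise (log2 fold change 2.91 ± 0.18, n = 3 per group; edgeR adjusted p = 4.7e-07), from the lowest NUPR1 level of the 7 groups to the highest. CHAC1 went from 3.16, 2.76 and 2.36 CPM to 5.3, 7.91 and 5.88 CPM, with a log2 fold change of 1.19 ± 0.18 (edgeR adjusted p = 0.00025). DDIT3 went from 4.8, 4.09 and 4 CPM to 6.76, 8.08 and 9.33 CPM, with a log2 fold change of 0.89 ± 0.14 (edgeR adjusted p = 0.000351). ATF5 rose from 26.1, 27 and 23.5 CPM to 34.9, 37.7 and 47.2 CPM, its highest level in the series (log2 fold change 0.63 ± 0.11, edgeR adjusted p = 0.000555). SESN2 and TRIB3 rose less, by 0.50 ± 0.09 and 0.45 ± 0.08 on the log2 scale (edgeR adjusted p = 0.000825 and 0.00096), from 28.1, 26.3 and 27.2 CPM to 33.9, 42.1 and 41.1 CPM for SESN2 and from 34.5, 31.3 and 30.8 CPM to 40.1, 46.2 and 47.6 CPM for TRIB3. For these 6 genes the vehicle and DOX libraries did not overlap. Of the line markers FN1 (1.25 ± 0.07), CDH2 (0.22 ± 0.08) and ZEB1 (0.16 ± 0.06) rose with DOX in this line, and VIM fell (-0.18 ± 0.06). ESR1 was called higher (1.45 ± 0.47), with overlapping groups and means of 0.342 CPM with vehicle and 0.974 CPM with DOX. PECAM1 rose from 6.34 to 7.27 CPM to 8.73 to 10.3 CPM. The part of these markers in the result was not tested.

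ATF4 stood at 207, 197 and 173 CPM with vehicle and at 154, 182 and 182 CPM with DOX, and the groups overlapped. The log2 fold change of -0.17 ± 0.08 passed at an edgeR adjusted p of 0.084, and the call was lost without vehicle replicate 1 (-0.14, adjusted p = 0.25), without vehicle replicate 2 (-0.18, 0.177), without DOX replicate 1 (-0.12, 0.151) or without DOX replicate 3 (-0.19, 0.121). ATF3 stood at 12.2, 11.8 and 12.9 CPM and at 12.6, 15.2 and 14.4 CPM, with an interval of -0.05 to 0.41 for its log2 fold change; it was called higher without DOX replicate 1 (0.23, edgeR adjusted p = 0.0688) and in the joint fit of all 21 libraries (0.20, adjusted p = 0.0832). GDF15 stood at 6.63, 5.4 and 5.81 CPM and at 4.59, 8.26 and 7.38 CPM, an interval of -0.26 to 0.59, and without DOX replicate 1 it too was called higher (0.36, edgeR adjusted p = 0.0349). ASNS stood at 2.03, 2.11 and 2.03 CPM and at 2.31, 1.79 and 1.76 CPM (log2 fold change -0.09, interval -0.51 to 0.33), whereas ASNSP1 rose by 1.12 ± 0.16 on the log2 scale (edgeR adjusted p = 0.000166). Against 3D cells in place of vehicle, TRIB3 (-0.33, edgeR adjusted p = 0.00383), SESN2 (-0.29, 0.0206), ATF3 (-1.50, 9.3e-08) and ATF4 (-0.69, 6.0e-06) were lower in the DOX-treated tet-MYCshRNA mammospheres. ATF5 (0.96), DDIT3 (0.86) and NUPR1 (2.16) were called higher there. ASNS was called lower (-0.78, 0.0051), and CHAC1 was not called (0.31, 0.158).

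The difference between the responses of the 2 tet lines to the same DOX dose was tested directly as an interaction over their 12 libraries, and the contrasts share none of these. For 9 of the 10 genes the log2 fold change with DOX was lower in the tet-MUC1shRNA than in the tet-MYCshRNA line, and for none was it called higher, where 26.9% of all 21585 genes were called lower and 26.0% higher (of all calls 49.1% higher, or 61.2% with library size alone). The difference was -4.01 ± 0.27 for NUPR1 (edgeR adjusted p = 1.2e-09), which fell in the tet-MUC1shRNA line and rose in the other. DDIT3 (-2.14 ± 0.24), CHAC1 (-2.00 ± 0.22), TRIB3 (-1.92 ± 0.11), ATF5 (-1.75 ± 0.14) and SESN2 (-1.59 ± 0.12) also fell in the tet-MUC1shRNA and rose in the tet-MYCshRNA line. ASNS (-1.99 ± 0.28) and ATF3 (-1.37 ± 0.14) fell in the former and were not called in the latter, and ATF4 (-0.59 ± 0.11) was called lower in both, more so in the tet-MUC1shRNA line. GDF15 did not differ detectably (0.29 ± 0.22, interval -0.17 to 0.74, edgeR adjusted p = 0.299), but it was called higher without DOX replicate 2 of the tet-MYCshRNA line (0.45, adjusted p = 0.0763), with library size alone (0.50, 0.0521) and with no low-count filter (0.35, 0.0731). The lines also differ in passage, in starting level and in MUC1, which went from 67.5 to 72.6 CPM with vehicle to 136 to 196 CPM with DOX in the tet-MYCshRNA line. MYC in turn went from 235 to 253 CPM with vehicle to 271 to 299 CPM with DOX in the tet-MUC1shRNA line. These differences cannot be told apart from the target of the hairpin.

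The fourth comparison asked whether GO-203, which targets the MUC1-C protein, moved the same genes in 3D cells. Of the 10 genes 8 were not called, ATF3 was called higher and GDF15 lower. In edgeR's test over 18488 genes 11.1% of all genes were called higher and 12.9% lower, and 0.757% passed an absolute log2 fold change of 1.5, which none of the 10 did; the largest absolute value among them was the 0.50 of GDF15. ATF3 stood at 36.6, 36.1 and 39.2 CPM in 3D cells and at 45.9, 47.4 and 56 CPM with GO-203 (log2 fold change 0.43 ± 0.07, n = 3 per group; edgeR adjusted p = 6.5e-05). GDF15 stood at 7.25, 6.79 and 6.15 CPM and at 4.24, 4.82 and 5.04 CPM (log2 fold change -0.50 ± 0.13, edgeR adjusted p = 0.0103). Neither gene had overlapping groups. The other 8 overlapped, with log2 fold changes from -0.16 (CHAC1) to 0.32 (NUPR1). Their 95% intervals were narrow for the abundant genes, -0.15 to 0.08 for ATF4 and -0.26 to 0.04 for SESN2, and wider for the scarce ones, -0.16 to 0.81 for NUPR1 and -0.22 to 0.47 for DDIT3. TRIB3 (without GO-203 replicate 2, 0.19, edgeR adjusted p = 0.0741) and SESN2 (without GO-203 replicate 3, -0.20, adjusted p = 0.0611) each passed the threshold when 1 library was left out. MUC1 mRNA was at 238 to 267 CPM with GO-203 and 177 to 219 CPM without.

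The response to GO-203 differed from the response to MUC1 shRNA induction for all 10 genes in a test of the interaction over 12 libraries. The log2 fold change was lower with the shRNA for 9 genes and higher for GDF15, where 24.1% of all 20829 genes were called lower and 20.8% higher (of all calls 46.4% higher, or 61.6% with library size alone). The difference was largest for ASNS (-2.02 ± 0.26), ATF3 (-1.60 ± 0.12) and TRIB3 (-1.58 ± 0.10), followed by NUPR1 (-1.41 ± 0.31), DDIT3 (-1.36 ± 0.25), ATF5 (-1.12 ± 0.12), SESN2 (-0.96 ± 0.11), ATF4 (-0.71 ± 0.09) and CHAC1 (-0.63 ± 0.19). For GDF15, which rose with the shRNA and fell with GO-203, it was 0.97 ± 0.14 (edgeR adjusted p = 3.0e-06). The untreated levels from which these responses started differed, as given above for vehicle-treated tet-MUC1shRNA mammospheres and 3D cells. The arms also differ in vector and in DOX, which only the shRNA arm received, and the duration of GO-203 is not given. These differences cannot be told apart from the agent.

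Genes upstream of ATF4 had medians nearer to that of all genes than the 10 genes in both tet lines. Of 18 such genes (the 4 eIF2α kinases, their regulators DELE1, OMA1, GCN1 and IMPACT, the phosphatase subunits PPP1R15A and PPP1R15B, and the subunits of eIF2 and eIF2B) 3 were called higher and 9 lower with DOX in the tet-MUC1shRNA line, where 30.7% of all genes were higher and 31.6% lower, with a median log2 fold change of -0.12. Among the kinases EIF2AK4 (GCN2) rose (log2 fold change 0.90 ± 0.05, edgeR adjusted p = 9.8e-13), EIF2AK1 (HRI) fell (-0.40 ± 0.04, adjusted p = 4.1e-08), EIF2AK3 (PERK) fell (-0.41 ± 0.08, adjusted p = 0.000244) and EIF2AK2 (PKR) rose slightly (0.11 ± 0.05, adjusted p = 0.0542). PPP1R15A (GADD34), which is itself an ATF4 target and brings the eIF2α phosphatase, fell by 0.88 ± 0.08 on the log2 scale. PPP1R15B, its constitutive counterpart, rose by 0.12 ± 0.04. In the tet-MYCshRNA line 4 of the 18 were called higher and 9 lower with DOX (30.3% and 28.1% of all genes), with a median of -0.24; OMA1, the mitochondrial protease that starts the DELE1 route, rose most (0.64 ± 0.13) and EIF2B3 fell most (-0.87 ± 0.08). There EIF2AK3 rose by 0.29 ± 0.11 on the log2 scale (edgeR adjusted p = 0.0429), PPP1R15A by 0.23 ± 0.09 (adjusted p = 0.0609), and EIF2AK1, EIF2AK2 and EIF2AK4 were not called. In 3D vs. 2D cells 11 of the 18 were called higher and 4 lower (32.0% and 31.7% of all genes); EIF2B2 rose most (0.96 ± 0.06), EIF2AK4 by 0.74 ± 0.06 and PPP1R15A by 0.69 ± 0.07, while EIF2AK2 fell most (-0.38 ± 0.06). With GO-203 2 of the 18 were called higher and 3 lower, near the shares of 11.1% and 12.9% over all genes; PPP1R15A rose most (0.32 ± 0.07, edgeR adjusted p = 0.00224), EIF2B5 fell most (-0.36 ± 0.07, adjusted p = 0.000758) and EIF2AK4 fell by 0.18 ± 0.06 on the log2 scale (adjusted p = 0.0317).

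Of the leucine zipper proteins that can pair with ATF4 (CEBPA, CEBPB, CEBPD, CEBPG and JDP2), 2 were called higher and 3 lower with DOX in the tet-MUC1shRNA line (30.7% and 31.6% of all genes), and 4 higher and 0 lower in the tet-MYCshRNA line (30.3% and 28.1% of all genes). CEBPB, a partner at CARE sites, rose in 3D vs. 2D cells (log2 fold change 1.09 ± 0.06) and with DOX in both lines (0.53 ± 0.05 in the tet-MUC1shRNA and 0.64 ± 0.12 in the tet-MYCshRNA line). CEBPA was called higher with DOX in both (1.78 ± 0.42 and 2.58 ± 0.46) but stayed under 1 CPM in its group means. CEBPD was called in opposite directions, lower in the tet-MUC1shRNA line (-0.88 ± 0.06, edgeR adjusted p = 7.5e-11) and higher in the tet-MYCshRNA line (0.41 ± 0.14, adjusted p = 0.0309, with overlapping groups). CEBPG was lower in the tet-MUC1shRNA line (-0.57 ± 0.05) and not called in the other (0.05 ± 0.07). JDP2 was called lower in the tet-MUC1shRNA line (-3.29 ± 0.69), where it was scarce, with means of 0.371 CPM with vehicle and 0.0392 CPM with DOX, and higher in the tet-MYCshRNA line (2.65 ± 0.23), with means of 0.49 and 3.14 CPM. With GO-203 none of the 4 tested partners was called, where 11.1% of all genes were higher and 12.9% lower; their log2 fold changes ran from -0.13 to 0.10. CEBPD rose most in 3D vs. 2D cells, by 2.89 ± 0.06 on the log2 scale, and JDP2 fell most there, by 3.44 ± 0.28.

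Other ATF4 or DDIT3 targets, 19 genes of serine and one-carbon synthesis, amino acid transport, secretion and cell death, were mostly called lower with DOX in the tet-MUC1shRNA line and split in the other comparisons. There 16 of the 19 were called lower and 2 higher (31.6% and 30.7% of all genes), and the median log2 fold change was -0.70. ERO1A, an ER oxidase that DDIT3 and hypoxia both induce, fell by 2.13 ± 0.06 on the log2 scale, and SLC7A11, the cystine importer, rose by 0.84 ± 0.06. In the tet-MYCshRNA line 5 of 18 were called higher and 9 lower with DOX (30.3% and 28.1% of all genes), with a median of -0.13. ADM2 rose most (2.00 ± 0.15) and MTHFD2, a mitochondrial folate enzyme, fell most (-1.23 ± 0.08). In 3D vs. 2D cells 6 of 18 were called higher and 10 lower (32.0% and 31.7% of all genes); DDIT4, an mTORC1 inhibitor, rose by 2.38 ± 0.08 and SLC7A11 fell by 2.63 ± 0.07 on the log2 scale. With GO-203 5 of 18 were called higher, SLC7A11 most (0.71 ± 0.07), and 3 lower, VLDLR most (-0.51 ± 0.06), where 11.1% of all genes were higher and 12.9% lower.

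The cytosolic aminoacyl-tRNA synthetases, many of which ATF4 is known to activate, were mostly called lower in both lines. With DOX 16 of 20 fell and 1 rose in the tet-MUC1shRNA line (median log2 fold change -0.21), where 31.6% of all genes were lower and 30.7% higher. In the tet-MYCshRNA line 15 fell and 3 rose (median -0.40; 28.1% and 30.3% of all genes), with FARSA lowest (-0.95 ± 0.14) and WARS1 highest (0.44 ± 0.06). In 3D vs. 2D cells 8 were called higher and 3 lower (32.0% and 31.7% of all genes). With GO-203 1 was higher and 4 lower, where 11.1% and 12.9% of all genes were, a share near that of all genes. In the test of the difference between the tet lines 8 of the 20 were lower and 10 higher in the tet-MUC1shRNA line (26.9% and 26.0% of all genes), against 9 lower and 0 higher for the 10 genes.

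The ATF6 and XBP1 arms of the unfolded protein response, which act beside the PERK-ATF4 arm in ER stress, were described with 12 genes. In the tet-MUC1shRNA line 9 fell and 3 rose with DOX (31.6% and 30.7% of all genes), and the median log2 fold change was -0.86. The lowest was HSPA5 (BiP), the main ER chaperone, at -1.86 ± 0.06, and ATF6 rose by 0.41 ± 0.04. In the tet-MYCshRNA line 7 rose and 5 fell (median 0.23; 30.3% and 28.1% of all genes), with DNAJB9, an XBP1-dependent co-chaperone, highest (0.79 ± 0.11) and MANF lowest (-0.52 ± 0.07). In 3D vs. 2D cells 5 rose and 5 fell (32.0% and 31.7% of all genes), and DNAJB9 rose most (1.16 ± 0.08). With GO-203 CRELD2 alone was called (0.33 ± 0.10), where 11.1% of all genes were higher and 12.9% lower. In the test of the difference between the tet lines 9 of the 12 were called lower in the tet-MUC1shRNA line and 2 higher (26.9% and 26.0% of all genes), and the difference was largest for DNAJB9 (-2.26).

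**Figure D4:**
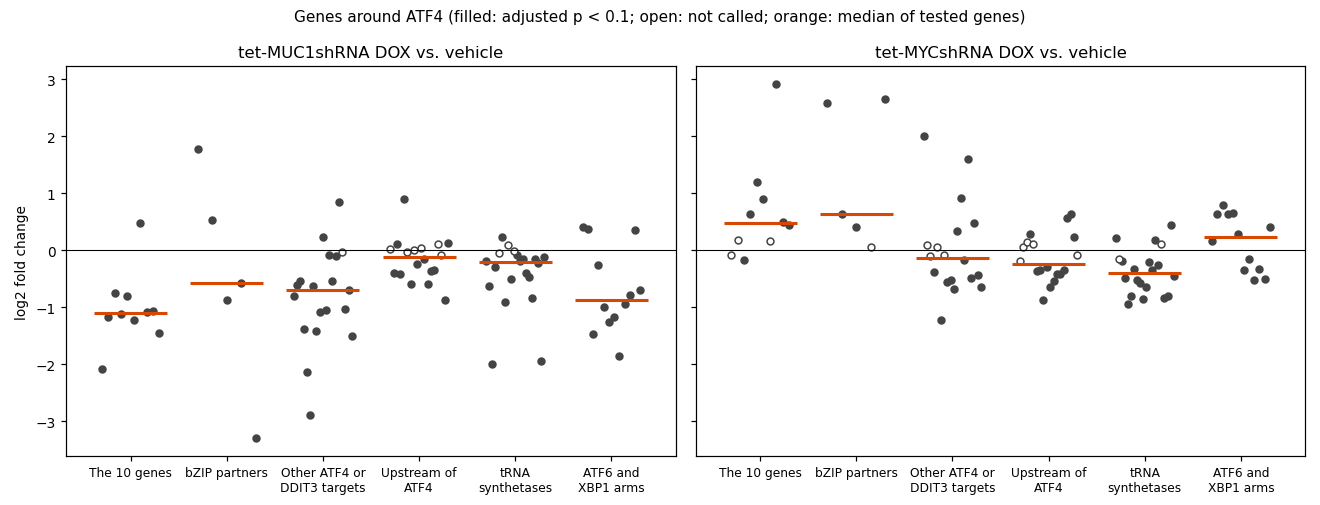
log2 fold change with DOX (y axis) of single genes (points) in the 10 described genes and 5 lists around them (x axis), in the tet-MUC1shRNA line (left) and the tet-MYCshRNA line (right). Filled points passed edgeR's test at adjusted p below 0.1, open points did not, and orange bars are medians of the tested genes: -1.10 and 0.48 for the 10 genes, -0.70 and -0.13 for the other ATF4 or DDIT3 targets, and -0.86 and 0.23 for the ATF6 and XBP1 arms.

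Across the 21 libraries the 10 genes did not move as 1 block. The highest Pearson correlation of log2 CPM between any pair was 0.94, for TRIB3 and SESN2, followed by 0.83 for CHAC1 and SESN2 and 0.78 for ATF3 and TRIB3. The lowest was -0.43, for ATF5 and GDF15. ATF4 correlated with GDF15 at -0.38. Over 10317 genes with a mean of at least 5 CPM, the genes with the pattern most like that of TRIB3 were HERPUD1 (0.980), DNAJB9 (0.976), CD46 (0.972), GNA13 (0.962) and TRIM4 (0.961). Those most like ATF4 were LOXL2 (0.952), KDM5B (0.947), INPP5E (0.935), GPSM1 (0.930) and GLA (0.930). Those most like GDF15 were TMEM183BP (0.966), MFSD5 (0.962), MORF4L1P1 (0.960), MED28 (0.956) and ICAM1 (0.951). None of the 10 genes was among the 5 most like ATF4, but DDIT3, ASNS and NUPR1 lay under the 5 CPM mean and were not searched. ASNS had the highest correlation with ATF4 among the 10 genes, at 0.56. The libraries come in 7 groups of 3, so these correlations, which share libraries and carry no test, are descriptions of the differences between groups.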

How the data were processed

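Per the labels and the study's methods, total RNA was prepared with a TruSeq Stranded mRNA kit and sequenced on a NovaSeq. The authors aligned reads to GRCh38 with STAR and counted them per gene with featureCounts. The STAR version is 2.7.3a in the submitters' processing notes, which also name CASAVA 1.8.2 and DESeq2, and a later one in the study's methods. The deposited values are raw counts in 1 table of 42339 identifiers and 21 libraries, and blank cells were read as 0. Per-sample columns that belong to no listed sample numbered 0. All 21 libraries had a group from their labels, 3 in each of 7 groups. The study's methods speak of cells cultured in triplicate, and the labels do not say whether the cultures were independent, so p-values measure the spread between these libraries, which may be partly technical.

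Here, counts were tested with edgeR 4.0.16 in R 4.3.3 (filterByExpr, TMM factors, glmQLFit and glmQLFTest) on the 6 libraries of each comparison, or on 12 for an interaction, with Benjamini-Hochberg adjustment over all genes tested. A gene was called at adjusted p below 0.1 and called large also above an absolute log2 fold change of 1.5, the thresholds of the study. SEs were taken as the absolute log2 fold change over the square root of F, and 95% intervals from the t distribution of the fit. Fold changes come from the fit of each comparison, levels from a scaling over all 21 libraries, so the ratio of printed means can differ a little from the fold change. Correlations used log2 CPM with a prior count of 2. Alternatives were DESeq2 1.42.0, scaling by RLE or by library size alone, dropping the low-count filter or requiring 10 counts per library, 1 joint fit of all 21 libraries, a replicate block, a stricter threshold of 0.05, the tet-MUC1shRNA vehicle group standing in for 3D cells, leaving out each library, and, added after the levels were seen, 3D cells in place of vehicle and the comparisons of vehicle-treated lines with 3D cells. The scripts were tested on simulated data. Promoter windows and gene positions came from RefSeq (GRCh38.p14) and GENCODE on GRCh38; the annotation release behind the counts is not given in the sources used here. All named list genes follow a rule: per list and comparison, the called gene with the largest rise and that with the largest fall at a mean of at least 1 CPM over the 21 libraries, plus the eIF2α kinases, PPP1R15A and PPP1R15B. Other CEBP genes than the rule gives, the line markers with values and ASNSP1 were named after their values were seen. The 10 genes and the lists around them were chosen with earlier results of these data known. For 1 list and comparison the gene that fell most is not reported here.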

Additional observations from a re-analysis of the deposited data

Results flagged for a closer look

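The results listed here drew attention because the same kind of contrast gave different effects in different lines or with different agents, by a test of the difference itself (edgeR's interaction, adjusted p below 0.1). For DOX in the tet-MUC1shRNA line minus DOX in the tet-MYCshRNA line, the difference of log2 fold changes was -0.59 for ATF4, -1.37 for ATF3, -1.75 for ATF5, -2.14 for DDIT3, -1.92 for TRIB3, -2.00 for CHAC1, -1.99 for ASNS, -1.59 for SESN2 and -4.01 for NUPR1. GDF15 was not among them at 0.29.

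For DOX in the tet-MUC1shRNA line minus GO-203 in 3D cells, the difference was -0.71 for ATF4, -1.60 for ATF3, -1.12 for ATF5, -1.36 for DDIT3, -1.58 for TRIB3, -0.63 for CHAC1, -2.02 for ASNS, -0.96 for SESN2, -1.41 for NUPR1 and 0.97 for GDF15. The groups compared also differed in vector, DOX or passage as given above, and the lines started from different levels of these genes. Whether any of these differences plays a part was not tested.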

How the results depend on the processing

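The numbers of the 10 genes called stayed within 1.5 times the reported number under every alternative run: 6 to 10 in 3D vs. 2D cells, 9 to 10 for MUC1 shRNA induction, 2 to 3 for GO-203 and 6 to 8 for MYC shRNA induction. Of 1190 values of single genes under an alternative, 573 with a library left out and 567 of the others kept their direction and side of the threshold. Measured against 3D cells in place of vehicle, a setting chosen after the levels were seen, CHAC1 (0.29) and SESN2 (0.48) changed direction for MUC1 shRNA induction, as did ATF3 (-1.50), TRIB3 (-0.33), SESN2 (-0.29) and GDF15 (-0.09) for MYC shRNA induction. The other reversals were of values that were not called: ATF5 with GO-203 was at -0.02 with all 21 libraries in 1 fit, and DDIT3 in vehicle-treated tet-MYCshRNA mammospheres vs. 3D cells was at 0.07 with library size alone and at 0.00 with at least 10 counts or with all 21 libraries. With a library left out, log2 fold changes with GO-203 ran from -0.06 to 0.00 for ATF4, -0.04 to 0.08 for ATF5, -0.04 to 0.29 for DDIT3 and -0.13 to 0.04 for ASNS, those of GDF15 with MYC shRNA induction from -0.01 to 0.36, and those of DDIT3 in the tet-MYCshRNA vehicle group vs. 3D cells from -0.09 to 0.05. Library size alone moved the median over all genes to 0.19 for MUC1 shRNA induction, 0.25 for its difference from MYC and 0.15 for its difference from GO-203. The cause of these changes was not tested. With as few as 45 counts for NUPR1, 59 for DDIT3 and 90 for ASNS in a library, small changes of these genes were not detectable at this depth.

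The deviations of like-numbered libraries from their group means were hardly correlated in 3D vs. 2D cells (correlations over genes of -0.0854 to 0.0443), MUC1 shRNA induction (-0.0441 to 0.0547), GO-203 (0.0454 to 0.0801) or MYC shRNA induction (-0.183 to -0.00314), so the numbers were not taken as pairs; in GO-203 all 6 libraries correlated best with their own number, a hint from the data and not from the design. With the replicate block 7, 10, 2 and 6 of the 10 genes were called in 3D vs. 2D cells, MUC1 shRNA induction, GO-203 and MYC shRNA induction. ATF4 with MYC shRNA induction lost its call there (-0.17, edgeR adjusted p = 0.161), and ATF4 in the tet-MUC1shRNA vehicle group vs. 3D cells gained one (-0.10, adjusted p = 0.0994).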

Other observations

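Genes known as p53 targets outside the 10 were described because GDF15 and SESN2 are known to answer to p53 as well, and BT-549 cells are known to carry a mutant p53. With DOX in the tet-MUC1shRNA line 7 of 11 were called higher and 2 lower (30.7% and 31.6% of all genes tested), with a median log2 fold change of 0.28 against 0.02 over all genes tested. TP53I3 rose most (1.40 ± 0.28, edgeR adjusted p = 0.000241) and GADD45A, which ATF4 can also induce, fell most (-1.27 ± 0.08, adjusted p = 7.9e-12). In the tet-MYCshRNA line 6 of 11 were called higher and 2 lower with DOX (30.3% and 28.1% of all genes; median 0.36), PHLDA3 rising most (2.15 ± 0.28, edgeR adjusted p = 0.000101). In 3D vs. 2D cells 5 rose and 5 fell (32.0% and 31.7% of all genes), with CDKN1A, the cell cycle inhibitor p21, highest (3.29 ± 0.12). With GO-203 3 were called higher and 2 lower (11.1% and 12.9% of all genes), and CDKN1A fell most (-0.33 ± 0.06, edgeR adjusted p = 0.000475).

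Genes for mitochondrial chaperones and proteases (HSPD1, HSPE1, HSPA9, LONP1, CLPP and YME1L1) were never called higher with DOX. In the tet-MUC1shRNA line 5 of 6 fell (31.6% of all genes; median log2 fold change -0.50), LONP1 most (-0.64 ± 0.06), and in the tet-MYCshRNA line 5 of 6 fell (28.1% of all genes; median -0.75), HSPD1 most (-1.55 ± 0.08, edgeR adjusted p = 1.6e-07). In 3D vs. 2D cells all 6 rose (32.0% of all genes), CLPP most (0.80 ± 0.09), and with GO-203 4 fell (12.9% of all genes), CLPP most (-0.22 ± 0.05).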
